A study of Mus musculus with 41 samples.

Results

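The comparison described here is that of androgenetic haploid embryonic stem cells (AG-haESCs) moved from 2i/L to SF/a2i/L medium with AG-haESCs derived and kept in TSa2i/L. Its members were chosen by their labels, and they are 8 of the 41 samples of the series and 8 of its 13 RNA-seq libraries. AG-haESCs are mouse stem cells that carry a single set of chromosomes of sperm origin. The 3 switched libraries came from cells collected 5 passages after the switch. One line, 2i-14, is wild type. 2i-O48 lacks the H19-DMR and the IG-DMR, and 2i-O48-TKO lacks H19 in addition. The 5 TSa2i/L libraries came from 2 wild-type lines. TSa2i-C57 was sampled at passages p9 and p58, and TSa2i-14 at p22, p47 and p54. The starting point of each switched line was read in its own 2i/L library (2i-14 p50, 2i-O48 and 2i-O48-TKO), and 2i-14 p18 and p39 served as alternatives, since the labels do not say which passage of 2i-14 was switched. 2i/L holds serum, LIF, PD0325901 and CHIR99021, which inhibit MEK and GSK3. SF/a2i/L is serum-free and holds LIF, CHIR99021 and the Src inhibitor CGP77675 in place of the MEK inhibitor. TSa2i/L cells were derived in serum with these inhibitors and then grown in SF/a2i/L. All cells grew on mouse embryonic fibroblast feeders, and the lines were kept haploid by regular cell sorting.

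Medium, line, genotype and culture history do not vary independently among these libraries. The switched and TSa2i/L cells were in the same medium when collected but came from different lines, and 2 of the 3 switched lines carry deletions that no TSa2i/L line carries, so that the effects of line, genotype and earlier culture on any difference below cannot be told apart. 2i-O48 and 2i-O48-TKO share the name O48 and both DMR deletions and may not be independent derivations, although each counts as 1 of the 3 switched lines in the tests. Libraries of a TSa2i/L line are passages of that line and each culture gave 1 library, so p-values measure the spread between these libraries. In bulk RNA, fewer cells of a type and less RNA per cell cannot be told apart.

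As background, MEK inhibition in mouse embryonic stem cells lowers the proteins that maintain DNA methylation, and long culture with it leads to loss of methylation, including at imprinted regions. The Src inhibitor serves as a replacement for the MEK inhibitor that leaves more of the methylation in place. Imprinted genes are expressed from the copy of 1 parent, and a sperm-derived genome holds only the paternal kind of imprint. Many germline genes are held silent in somatic and stem cells by methylation of CpG-rich promoters and by repressors that bind the E-box CACGTG.

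The values are FPKM, fragments scaled to transcript length and to the number of mapped fragments, and each gene was compared on log2(FPKM + 1). A difference is the mean of one group minus that of the other on this scale, which understates the change of genes with low values. The values that follow are given in the order 2i-14, 2i-O48-TKO and 2i-O48 for the switched cells and their 2i/L libraries, and from the earliest to the latest passage of TSa2i-14 and then of TSa2i-C57 for TSa2i/L. Adjusted p-values are from limma with Benjamini-Hochberg adjustment over all genes tested, and a gene is called at an adjusted p under 0.05.

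Sequences of 5 promoters are shown here because these genes, which are taken up below, took different courses after the switch. Slc25a31 and Stk31 stayed above the TSa2i/L level, Dazl and Sohlh2 came down to it, and Pramel7 fell below it. Each run is the 250 bases before the RefSeq transcription start, 5′ to 3′ on the strand of the gene, from build GRCm38.p6. Capitals mark each CG, and CACGTG where it occurs. The windows are chr3:40708621-40708870 and chr6:49395289-49395538 on the plus strand, chr17:50293621-50293870 on the minus strand, chr3:55181794-55182043 on the plus strand and chr2:87492419-87492668 on the minus strand.
Slc25a31: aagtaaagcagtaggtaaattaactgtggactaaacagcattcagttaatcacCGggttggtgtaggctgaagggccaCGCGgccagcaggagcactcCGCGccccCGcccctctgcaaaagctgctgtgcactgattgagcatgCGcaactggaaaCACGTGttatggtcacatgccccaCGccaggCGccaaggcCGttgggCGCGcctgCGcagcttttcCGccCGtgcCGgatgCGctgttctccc
Stk31: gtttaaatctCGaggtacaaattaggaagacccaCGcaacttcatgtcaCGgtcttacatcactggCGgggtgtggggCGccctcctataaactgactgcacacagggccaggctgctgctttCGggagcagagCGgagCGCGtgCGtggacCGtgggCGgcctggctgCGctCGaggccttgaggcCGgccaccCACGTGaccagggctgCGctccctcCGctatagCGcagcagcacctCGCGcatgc
Dazl: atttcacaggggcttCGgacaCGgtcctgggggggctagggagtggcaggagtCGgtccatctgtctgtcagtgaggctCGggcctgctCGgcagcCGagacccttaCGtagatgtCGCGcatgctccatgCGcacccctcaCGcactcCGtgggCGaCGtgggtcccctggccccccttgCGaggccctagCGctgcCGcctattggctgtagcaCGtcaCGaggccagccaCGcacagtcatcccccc
Sohlh2: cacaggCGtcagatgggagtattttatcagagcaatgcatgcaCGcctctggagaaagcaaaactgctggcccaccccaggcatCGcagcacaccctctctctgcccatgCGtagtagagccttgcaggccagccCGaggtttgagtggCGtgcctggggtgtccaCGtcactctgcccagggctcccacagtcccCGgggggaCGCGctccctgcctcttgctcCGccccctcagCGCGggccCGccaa
Pramel7: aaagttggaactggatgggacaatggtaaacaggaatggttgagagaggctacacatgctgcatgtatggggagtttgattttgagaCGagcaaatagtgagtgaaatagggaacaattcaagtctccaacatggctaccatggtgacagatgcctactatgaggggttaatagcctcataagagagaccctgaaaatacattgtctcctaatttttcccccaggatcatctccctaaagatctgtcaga
The 4 germline promoters held 18, 21, 20 and 14 CG in the order shown, and Pramel7 held 1. CACGTG stood once in Slc25a31, from base 158, once in Stk31, from base 196, and in neither Dazl nor Sohlh2.

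The 8 libraries had an implied depth of 12700000 to 19600000 fragments, estimated from the smallest FPKM values of 3737 genes, and 9258 to 10320 genes reached 1 FPKM. For a transcript of 1 kb, 3 fragments were worth 0.153 to 0.236 FPKM. MicroRNA loci held 67.2% of the summed FPKM in the switched 2i-14 library, and without them the sums of the 8 libraries were 676097 to 735364. The 8 embryonic stem cell markers were above 0 in all 13 libraries. Feeder RNA differed between the TSa2i/L libraries. The summed FPKM of 15 fibroblast markers was 145 in TSa2i-14 p54, then 44.7 in TSa2i-C57 p58, against 3.13 to 11.2 in the other 3 TSa2i/L libraries and 2.90 to 3.62 in the switched libraries, where 0 to 3 of the 15 markers were at 0. Among the 8 libraries, Y-linked genes, which an X-bearing haploid line lacks, were above 0 in the same 2 libraries, in TSa2i-14 p22 and, for 1 of 4 genes, in switched 2i-14. Outside the 8, 2i-14 p39, an alternative starting point, held 67.1 FPKM of the fibroblast markers and 4.15 FPKM of the Y-linked genes. Counts without TSa2i-14 p54 and TSa2i-C57 p58 are given below. With the fibroblast marker level as a covariate, 496 genes were called after the switch in place of 1504.

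The first question was how near the switched cells came to TSa2i/L cells over all genes. The root mean square (RMS) difference per gene, over the 10285 genes tested, was 0.56 to 0.75 in the 15 pairs of a switched and a TSa2i/L library, with a median of 0.71. These genes were chosen in the switched and TSa2i/L libraries, so genes expressed mainly in 2i/L are left out of every distance. The distances before the switch may be too low for this reason, which was not tested. Before the switch it was 0.63 to 0.82 with a median of 0.68. Pairs of TSa2i/L libraries differed by 0.40 to 0.62, and the 3 pairs of switched libraries by 0.44 to 0.52. The move away from 2i/L was of similar size, since each switched library differed from the 2i/L library of its own line by 0.63 to 0.79. The median distance to TSa2i/L was thus similar after 5 passages and before, and the ranges overlapped. After median centring the medians were 0.665 after and 0.667 before. The control library mattered. From TSa2i-C57 p9 the cells stood 0.64 to 0.82 before and 0.56 to 0.64 after the switch, and from TSa2i-14 p22, the other early passage, 0.65 to 0.67 before and 0.58 to 0.69 after. From TSa2i-C57 p58 they stood 0.68 to 0.73 before and 0.73 to 0.75 after. TSa2i-C57 p9 itself stood 0.49 to 0.62 from the other TSa2i/L libraries.

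**Figure D1:**
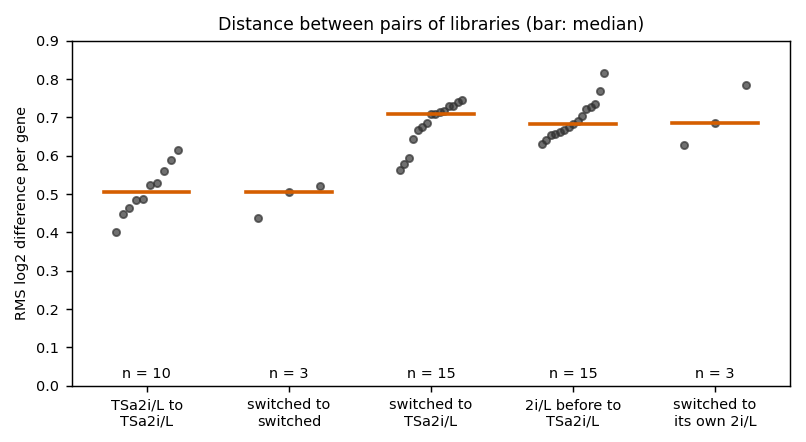
RMS log2(FPKM + 1) difference per gene (vertical axis) for pairs of libraries over 10285 genes, by kind of pair; each point is 1 pair and the bar is the median. Pairs of switched and TSa2i/L libraries, at 0.56 to 0.75, overlap the pairs of 2i/L and TSa2i/L libraries, at 0.63 to 0.82.

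Gene by gene, 1504 of 10285 genes (14.6%) were called between switched and TSa2i/L cells, 250 higher (2.43%) and 1254 lower (12.2%) in switched cells. With a log2 difference of at least 1, 44 were higher (0.428%) and 494 lower (4.80%). The balance of the directions depended on scaling. The median difference over all genes was -0.17 on the deposited scale, and centring each library on its median moved the differences by 0.26. It then gave 681 higher and 449 lower, and quantile normalization gave 407 and 516, so that 16.6% of the calls were higher as deposited, 60.3% after centring and 44.1% after quantile normalization. Under all 3 scalings, 614 genes were called in the same direction, 208 higher and 406 lower. Among those with a log2 difference of at least 1 on the deposited scale, all 44 higher genes and 345 of the 494 lower genes were in this set. Leaving out TSa2i-14 p54 and TSa2i-C57 p58 left 56 higher and 399 lower, and leaving out TSa2i-C57 p9 gave 380 and 1808. The total was 820 without TSa2i-14 p47, 791 without TSa2i-14 p54, 980 without TSa2i-C57 p58, 721 without switched 2i-O48-TKO and 551 without switched 2i-O48. Against TSa2i-C57 alone, 9 were higher and 101 lower. The wild-type switched library alone, with its spread borrowed from the TSa2i/L libraries, gave 7 higher and 117 lower, and the 2 DMR-deleted libraries gave 165 and 772. Within lines, from 2i/L to 5 passages after the switch, 672 of 9759 genes changed (6.89%), of which 217 rose (2.22%) and 455 fell (4.66%). The count was 1483 with 2i-14 p18 and 1522 with p39 in place of p50. With no filter on low FPKM limma called 0, with 3206 at an unadjusted p under 0.05.

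Among the genes most reduced in switched cells were a noncoding RNA, a T-cell receptor subunit, an autophagy receptor, a chaperone and membrane transporters. Ptprtos, a transcript from the strand opposite Ptprt, was 0.534, 0.584 and 0.6902 FPKM in switched cells and 23.98, 15.6, 20.8, 12.99 and 16.5 FPKM in TSa2i/L. It was thus above 12 FPKM in each TSa2i/L library and under 1 in each switched one, a log2 difference of -3.54 ± 0.21 (SE, adjusted p = 1.30e-05). Its 2i/L libraries were at 1.23, 0.411 and 0 FPKM, so the gap was already there (-3.67, adjusted p = 6.88e-05) and remained. It was not there at each passage of 2i-14 in 2i/L, where Ptprtos was 17.2 FPKM at p18, inside the TSa2i/L range, and 1.67 at p39. Whether the counting separated the strands is not given in the sources used here, so reads of Ptprt and Ptprtos may be mixed. Trpm1 and Gpr143, a cation channel and a receptor known from pigment cells, were also lower both before and after the switch. Trpm1 was 4.49, 3.19 and 1.02 FPKM after the switch, 3.25, 2.14 and 2.57 before it and 14.8, 36.4, 22.1, 23.1 and 18.98 in TSa2i/L, a difference of -2.68 ± 0.33 (adjusted p = 9.72e-04), and 9.10 and 6.66 FPKM in 2i-14 p18 and p39. Gpr143 was 1.07 to 1.203 FPKM in switched cells against 5.501 to 25.02 (-2.61, adjusted p = 0.00261), and the 2i/L libraries at 1.37 to 3.15 FPKM also lay below every TSa2i/L library. Rhbg, an ammonium transporter, was 3.73, 0.489 and 0.267 FPKM against 9.59 to 14.2 (-2.57, adjusted p = 0.00191), with switched 2i-14 the highest of the 3, and 8.59 FPKM in 2i-14 p18.

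Other genes fell during the switch, to below the TSa2i/L level. Cd3d, a subunit of the T-cell receptor complex (chr9:44789876-44795135 of NCBIM37, the build of all gene positions given here), was 6.36, 14.2 and 24.1 FPKM in 2i/L and 8.64, 13.7, 16.1, 7.32 and 8.87 in TSa2i/L but 0.132, 1.16 and 0.462 after the switch. The difference from TSa2i/L was -2.91 ± 0.28 (adjusted p = 3.72e-04), the 2i/L libraries did not differ from TSa2i/L by the test (adjusted p = 0.672), and the change within lines was -3.21 (adjusted p = 0.00812). Cryab, a small heat shock chaperone, went from 32.9, 17.05 and 23.9 FPKM to 1.76, 2.91 and 7.52, against 23.4, 24.5, 24.7, 54.6 and 32.3 in TSa2i/L (-2.79 ± 0.36, adjusted p = 0.00114). No switched library overlapped the TSa2i/L range of either gene. Accsl, a relative of plant ethylene synthesis enzymes, was 10.6, 4.71 and 9.28 FPKM before the switch, below TSa2i/L (26.2 in 2i-14 p18, above its range, and 15.3 in p39, inside it), and moved further from TSa2i/L, to 0.968, 1.56 and 1.47 against 17.8, 20.6, 25.4, 12.5 and 25.1 (-3.16 ± 0.24, adjusted p = 6.02e-05). Calcoco2 (chr11:95960640-95973278), an autophagy receptor, passed from far above to far below. It was 129, 64.4 and 307 FPKM in 2i/L, 2.94, 5.13 and 9.61 after the switch and 45.6, 44.4, 52.9, 31.04 and 56.98 in TSa2i/L, with differences from TSa2i/L of 1.57 before (adjusted p = 0.0284) and -2.86 after (adjusted p = 4.65e-04). Cyr61, a secreted matrix protein and target of YAP, fell from 11.5 to 22.5 FPKM to 1.997 to 4.25, below the 12.1 to 31.9 FPKM of TSa2i/L (-2.51, adjusted p = 8.68e-04). These 5 genes were called under each of the 21 alternatives tried.

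The remaining genes of this group varied more between TSa2i/L libraries. Fgg, a fibrinogen chain, was 1.37, 0.897 and 0.195 FPKM against 4.04, 35.9, 16.5, 12.3 and 5.16 (-2.80, adjusted p = 0.00853). Fxyd2, a regulator of the sodium pump, was 2.93, 3.08 and 3.65 FPKM against 13.4, 81.2, 41.03, 18.9 and 19.7 (-2.78, adjusted p = 0.00419). Rab3il1, an exchange factor for Rab GTPases, was 0.333 to 1.07 FPKM against 2.77 to 20.8 (-2.64, adjusted p = 0.00419). In all 3 the groups did not overlap, as in 21.8% of all genes tested, while the TSa2i/L values spread over a wide range. Serpinf1, a secreted serpin that fibroblasts also make, was 2.35, 2.62 and 1.997 FPKM in switched cells and 9.42, 15.2, 86.01, 9.04 and 29.5 in TSa2i/L, where the 2 highest values were those of the libraries with most fibroblast RNA. Its difference was -2.69 (adjusted p = 0.0131), and -1.85 without them (adjusted p = 0.00585).

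Among the genes higher in switched cells were an imprinted gene, a BMP ligand, an actin regulator and genes known from meiosis or testis. Nnat (chr2:157385814-157388258), an imprinted gene expressed from the paternal copy, was 13.9, 13.8 and 16.4 FPKM in switched cells and 2.896, 3.83, 2.704, 3.24 and 2.72 FPKM in TSa2i/L, where no library reached 4 FPKM. The difference was 1.95 ± 0.17 (adjusted p = 1.95e-04) and was called under each of the 21 alternatives. It was also present before the switch at 4.898, 10.4 and 15.6 FPKM (1.36, adjusted p = 0.0153). Bmp4 (chr14:47003195-47010344), a ligand that supports self-renewal together with LIF, was 0.302, 0.05604 and 3.66 FPKM in 2i/L and 26.8, 8.51 and 8.32 after the switch, above the 5.29, 1.01, 1.67, 0.984 and 2.54 FPKM of TSa2i/L (2.18 ± 0.43, adjusted p = 0.00923). All 3 switched libraries were above all 5 TSa2i/L libraries, and the rise within lines was 2.86 (adjusted p = 0.0423). Tmsb4x, which encodes the actin-binding thymosin beta 4, was 3998, 4982 and 6487 FPKM against 1991, 1371, 1824, 2981 and 1439.6 (1.45 ± 0.23, adjusted p = 0.00376). Tcf15, a basic helix-loop-helix factor, was 73.04, 33.9 and 47.4 FPKM against 20.2, 14.4, 17.97, 16.5 and 23.04 (1.38, adjusted p = 0.00531).

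Syce1, a part of the synaptonemal complex of meiosis, was 39.5, 67.8 and 48.5 FPKM in switched cells and 11.8, 14.6, 14.7, 16.03 and 30.7 in TSa2i/L (1.55, adjusted p = 0.006396). Its 2i/L libraries were scattered (12.5, 32.1 and 119 FPKM) and did not differ from TSa2i/L by the test (adjusted p = 0.238). Xlr, of a multicopy X-linked family whose copies may share reads, was 10.97, 16.2 and 8.34 FPKM against 2.42, 3.37, 3.37, 2.13 and 6.56 (1.52, adjusted p = 0.00851). Usp26, an X-linked deubiquitinase of testis, was 1.41, 3.27 and 1.22 FPKM against 0.0869 to 0.1704 (1.34, adjusted p = 0.00334), so every TSa2i/L library was under 0.2 FPKM. Halr1, a long noncoding RNA, was 1.87, 1.83 and 4.55 FPKM and listed at 0 in 4 of the 5 TSa2i/L libraries, with 0.603 FPKM in TSa2i-14 p54. Usp26 and Halr1 entered the test only because all 3 switched libraries reached 1 FPKM. The filter thus set their direction and lack of overlap, for which the p-value is no support. Timm21, of the mitochondrial protein import machinery, was 110.1, 54.2 and 60.7 FPKM against 32.99, 18.2, 21.4, 23.8 and 38.9 (1.42, adjusted p = 0.00947), with switched 2i-14 the highest. Ly6g5c was 5.44 to 10.5 FPKM against 1.23 to 4.75 (1.52, adjusted p = 0.0153) and Dqx1 4.21 to 9.87 against 1.27 to 3.22 (1.28, adjusted p = 0.0119). Pla2g1b, a secreted phospholipase, was 357, 375 and 460.1 FPKM against 272, 76.9, 83.8, 228 and 58.3 (1.73, adjusted p = 0.0267). Without TSa2i-14 p54 and TSa2i-C57 p58, Pla2g1b and Dqx1 were not called (adjusted p = 0.0946 and 0.0639), while the other 10 genes named as higher were. Tex13, an X-linked testis gene, had the largest difference of the genes called higher after the switch and not before (2.68, adjusted p = 0.0346). It was 0.525, 22.98 and 26.8 FPKM after and 0.307, 22.7 and 25.3 before the switch, against 0.268 to 1.003 in TSa2i/L, so that both DMR-deleted lines expressed it in each medium, 2i-14 was within or near the TSa2i/L range, and the call held in 9 of 16 alternatives.

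**Figure D2:**
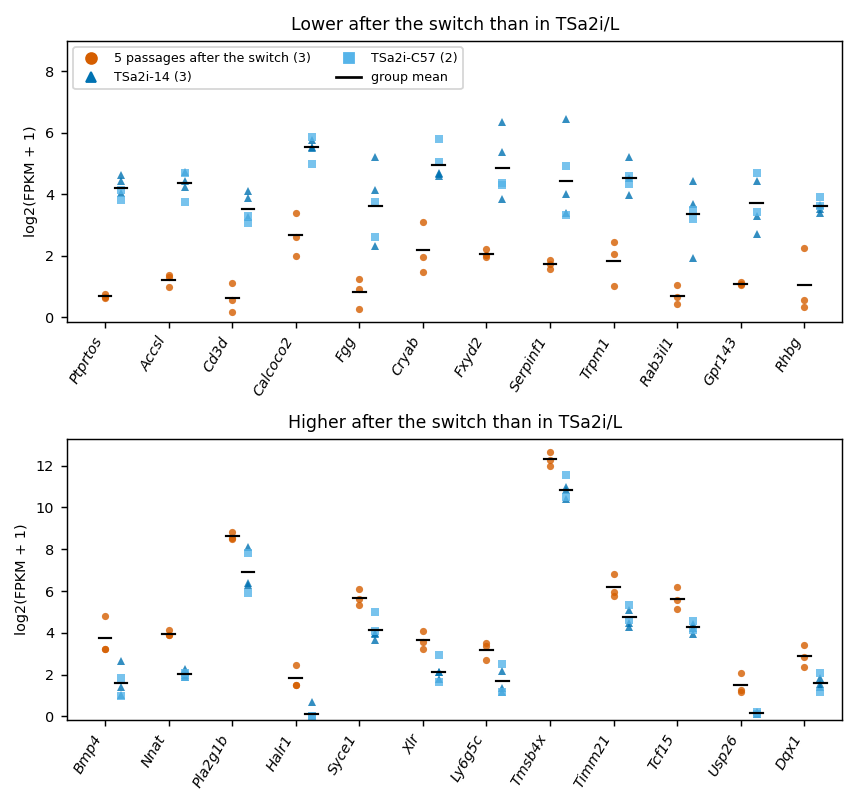
log2(FPKM + 1) (vertical axes) of the 12 genes most reduced and the 12 most raised in switched cells against TSa2i/L by the naming rule; points are libraries, by line for TSa2i/L, and bars are group means. In each gene the 3 switched libraries lie outside the range of the 5 TSa2i/L libraries, which the rule required.

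The second question was which of the genes that differed in 2i/L had reached the TSa2i/L level 5 passages later. Of 10402 genes tested before the switch, 1020 (9.81%) were called, 335 higher (3.22%) and 685 lower (6.59%) in 2i/L than in TSa2i/L. With a log2 difference of at least 1, 187 were higher (1.80%) and 334 lower (3.21%). Of the 10167 genes tested both before and after, 468 were called before the switch with a log2 difference of at least 1, 134 higher and 334 lower in 2i/L. All genes lost from the 187 and 334 were thus on the higher side. They did not reach 1 FPKM in 3 of the switched and TSa2i/L libraries and have no class. The class shares of the higher genes leave them out. A gene was counted as reached when the difference after the switch was not called and its whole 95% interval lay within a log2 of 1 either way. By that rule 151 genes (32.3%) had reached the TSa2i/L level, 168 (35.9%) still differed in the same direction, 23 (4.91%) were called on the other side, and 126 (26.9%) could not be placed because the interval was too wide. On the deposited scale the directions differed in their make-up, a contrast that was not tested. Among genes higher in 2i/L, 48 had reached the level, 14 still differed and 18 had gone past it, with 54 undecided. Among genes lower in 2i/L, 103 had reached it and 154 still differed, with 5 past it and 72 undecided. The median difference of the 134 higher genes went from 1.35 to 0.04 and that of the 334 lower genes from -1.31 to -0.75, both on log2 and read against the same 5 TSa2i/L libraries. These medians are on the deposited scale. Median centring moved the differences upwards, by 0.26 after the switch and by 0.096 before it. The medians after the switch would thus lie higher in both directions. In each switched library, 147 to 161 of the 468 genes lay within the range of the 5 TSa2i/L libraries, or 31.4% to 34.4%, against 46.9% to 50.6% of all 10167 genes. After median centring, which moves the differences after the switch upwards, 150 genes were reached and 97 still differed. Without TSa2i-14 p54 and TSa2i-C57 p58, the numbers were 106 and 79. With a limit of 0.58 in place of 1, 26 genes were reached. With the calls before the switch made against TSa2i-14 and the levels after it read against TSa2i-C57, 88 were reached and 30 still differed.

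**Figure D3:**
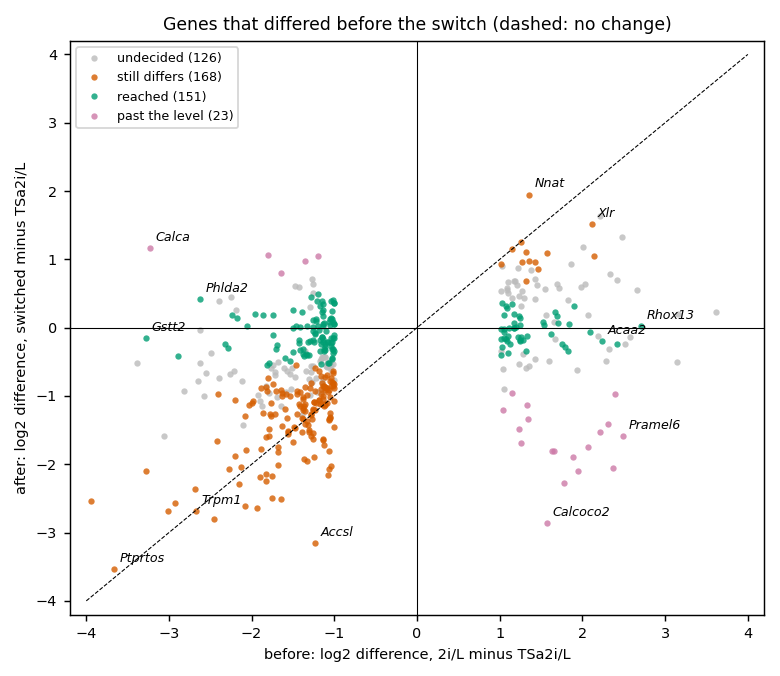
log2 difference from TSa2i/L before the switch (horizontal axis) and 5 passages after it (vertical axis) for the 468 genes called before with a log2 difference of at least 1; points are genes, coloured by class, with numbers in the legend, and the dashed line marks no change. Genes counted as reached lie within a log2 of 1 of the horizontal line, and the 154 genes left of 0 that still differ lie below it.

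Genes that came down to the TSa2i/L level included germline and X-linked reproductive genes. Rhox13, a homeobox gene of the reproductive cluster on the X chromosome, was 13.3, 14.1 and 13.8 FPKM in 2i/L and 1.92, 2.12 and 0.299 after the switch, against 0.512, 0.744, 1.898, 1.66 and 1.84 in TSa2i/L. The difference went from 2.71 (adjusted p = 1.82e-04) to 0.02, with a 95% interval of -0.68 to 0.71. Nanos3, an RNA-binding protein of primordial germ cells, went from 4.06 to 11.5 FPKM to 0.829, 2.42 and 2.05, against 0.6196 to 1.61 (1.89 before and 0.32 after). Magea5, of a family expressed in testis and tumours, went from 2.32, 16.7 and 9.87 FPKM to 0, 1.497 and 0, with 2 of the 3 switched libraries listed at 0, and was 0 to 1.28 in TSa2i/L. Metabolic and other genes took the same course. Acaa2, a mitochondrial thiolase of fatty acid oxidation, was 119, 91.01 and 94.04 FPKM in 2i/L, 15.1, 27.5 and 13.3 after the switch and 20.7, 16.1, 19.8, 22.9 and 23.9 in TSa2i/L. The switched libraries spanned the TSa2i/L values, and the difference went from 2.24 (adjusted p = 7.46e-05) to -0.20 (interval -0.71 to 0.31). Ankrd37, a hypoxia-inducible gene, went from 26.2 to 72.2 FPKM to 7.59 to 8.88 against 6.12 to 15.2. Acp5, an acid phosphatase, went from 23.2 to 44.7 to 4.12 to 9.72 FPKM against 5.92 to 9.71, and Agpat9, an enzyme of triglyceride synthesis, from 3.95 to 8.71 to 0.2296 to 1.31 against 0.494 to 2.14, where 2i-14 p18 was already at 0.756. Serpina3m, 1 of a cluster of similar serpins that may share reads, went from 11.3 to 29.1 to 2.54 to 9.54 FPKM against 2.75 to 7.31.

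Genes that came up to the TSa2i/L level included imprinted genes of the maternal kind, which a sperm-derived genome is expected to express weakly. Phlda2 and Slc22a18, neighbours on distal chromosome 7 (chr7:150687450-150688446 and chr7:150659626-150685239), both rose within lines (adjusted p = 0.00474 and 0.0203). Phlda2, which restrains placental growth, was 11.99, 11.7 and 6.77 FPKM in 2i/L, 82.2, 86.9 and 96.4 after the switch and 52.8, 75.3, 53.6, 81.1 and 72.2 in TSa2i/L. The rise was 3.04, and the difference from TSa2i/L went from -2.62 (adjusted p = 1.17e-04) to 0.42 (interval 0.03 to 0.81, adjusted p = 0.134). Slc22a18, a transporter, was 0.154, 1.03 and 0 FPKM before, 3.92, 3.85 and 6.603 after and 3.796, 5.73, 4.96, 6.03 and 8.74 in TSa2i/L (-2.33 before, adjusted p = 8.91e-04, and -0.24 after). Grb10, an imprinted adaptor of insulin signalling, went from 0.272 to 0.6205 to 2.21 to 3.27 FPKM against 1.27 to 3.05 and was also reached. Gstt2, a glutathione transferase, had the largest difference before the switch of these genes and went from 4.33, 7.598 and 3.21 FPKM to 63.1, 52.4 and 36.3, against 24.5, 86.7, 47.9, 78.9 and 61.3 in TSa2i/L (-3.27 before, adjusted p = 6.84e-04, and -0.15 after). All 3 switched libraries lay inside the TSa2i/L range. Ubap1l went from 1.67 to 8.42 to 23.7, 43.6 and 23.2 FPKM against 34.7 to 45.8, and Mia, a small secreted protein, from 9.04 to 20.1 to 80.2, 110.1 and 67.4 against 69.5 to 86.9. Ap1m2, an adaptor subunit of epithelial cells, Calml4, a calmodulin relative, and C8g, a complement component, went from 0.818 to 6.62 FPKM before the switch to 6.71 to 19.9 after it, against 7.88 to 38.9 in TSa2i/L.

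Genes that went past the TSa2i/L level did so from both sides. Pramel6 and Pramel7, neighbouring PRAME-like genes on chromosome 2 of which Pramel7 is known to lower UHRF1 protein, were high in 2i/L. Pramel6 was 12.2, 30.9 and 38.3 FPKM in 2i/L, 0.1096, 1.35 and 0.308 after the switch and 5.85, 2.92, 6.05, 2.903 and 1.56 in TSa2i/L (-1.59, adjusted p = 0.0146). Pramel7 was 12.1, 10.3 and 20.03 FPKM, then 0, 0.0337 and 0.307, against 3.36, 1.77, 4.61, 1.25 and 0.454 (-1.41, adjusted p = 0.0272). The 2 genes are alike in sequence and may share reads. For both, each switched library was under each TSa2i/L library. The call held in 15 of 20 alternatives for Pramel6 and in 9 of 19 for Pramel7. Glrx, a glutaredoxin of the thiol defence, went from 53.8, 95.2 and 178 FPKM to 3.48, 8.39 and 1.297 against 15.1, 16.7, 47.7, 5.85 and 24.9 (-2.05, adjusted p = 0.0328), and Ceacam10 from 11.6 to 22.8 to 0.421 to 0.958 against 1.305 to 3.699 (-0.97, adjusted p = 0.0258). Neither was called without TSa2i-14 p54 and TSa2i-C57 p58 (adjusted p = 0.121 and 0.106). In 2i-14 p18 Ceacam10 was 0.621 FPKM, below every TSa2i/L library, and with p18 as the start it was not called before the switch (adjusted p = 0.256). Glrx was 23.6 FPKM in 2i-14 p18, within the TSa2i/L range. In the other direction, Calca (chr7:121774994-121779871), which encodes calcitonin and the peptide CGRP, rose from 8.03, 12.4 and 7.92 FPKM to 199, 228 and 215, above the 106, 83.2, 64.9, 126 and 108 of TSa2i/L. The rise was 4.39 (adjusted p = 0.00196), and the difference from TSa2i/L went from -3.23 (adjusted p = 5.62e-05) to 1.16 (adjusted p = 0.00518). Gngt2, a G protein gamma subunit, rose from 3.29 to 10.02 to 47.9 to 62.5 FPKM against 19.7 to 36.8 (1.06, adjusted p = 0.0125). Flywch2 was 57.2 to 71.04 FPKM against 29.6 to 45.04 (0.80, adjusted p = 0.0163) and Vsig2 7.89 to 10.6 against 2.19 to 5.82 (0.98, adjusted p = 0.0243), both from lower levels before, and Flywch2 was not called without TSa2i-14 p54 and TSa2i-C57 p58 (adjusted p = 0.0803). Gngt2 and Vsig2 were within the TSa2i/L range in 2i-14 p18, at 22.96 and 2.402 FPKM.

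**Figure D4:**
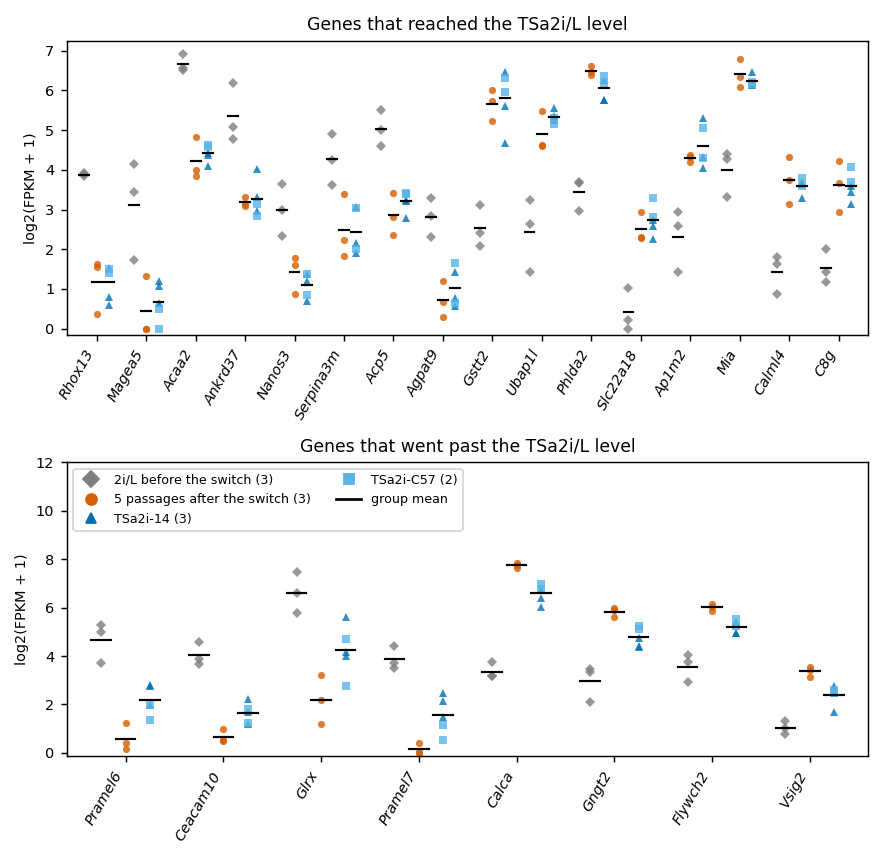
log2(FPKM + 1) (vertical axes) before the switch, 5 passages after it and in TSa2i/L for 16 genes that reached the TSa2i/L level and 8 that went past it; points are libraries and bars are group means. In the upper panel the switched libraries overlap TSa2i/L in every gene except Phlda2, where they lie just above it.

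The gene lists were read against the shares of all genes, 2.43% higher and 12.2% lower after the switch and 3.22% and 6.59% before it. Without TSa2i-14 p54 and TSa2i-C57 p58, 4.07% of all genes were lower after the switch. Of 18 p53 target genes tested, 8 were lower after the switch and none higher, with a list median of -0.69 against -0.17 for all genes. Before the switch 6 were lower and 1 higher, and 4 of the 18 were in the class that still differed. Phlda3, a repressor of Akt, was 12.5, 9.34 and 16.5 FPKM after the switch against 49.2, 47.97, 66.9, 69.4 and 47.8 (-2.07 ± 0.21, adjusted p = 4.65e-04). Mdm2, the ubiquitin ligase that p53 induces and that degrades p53, was 21.8, 18.8 and 23.8 FPKM against 59.05, 47.8, 67.1, 65.6 and 51.4 (-1.39 ± 0.17, adjusted p = 8.97e-04). Gdf15, a stress-induced cytokine, was 7.88, 12.1 and 11.9 FPKM against 20.2, 21.02, 26.5, 41.1 and 31.8 (-1.30, adjusted p = 0.00795), and Btg2, an antiproliferative gene, 5.74, 6.27 and 7.11 against 20.7, 17.6, 13.9, 23.6 and 12.3 (-1.30, adjusted p = 0.004802). In these 4 genes no switched library reached the lowest TSa2i/L library, and they are the 4 of the list that were called under all 3 scalings. The others called were Perp, Pmaip1, Sesn2 and Aen. Pmaip1, a BH3-only protein of apoptosis, was 30.2, 1.91 and 2.68 FPKM against 20.5 to 46.96, so the wild-type line was within the TSa2i/L range and both DMR-deleted lines were below it. Cdkn1a, the cell cycle inhibitor, was 89.3 to 179 FPKM against 117 to 155 and was not called (-0.05, adjusted p = 0.8803). Without TSa2i-14 p54 and TSa2i-C57 p58, 5 of 17 were lower.

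Of 22 germline genes tested, 3 were higher after the switch and none lower, and before the switch 6 of 23 were higher and 1 lower. The list median was 0.29 after and 0.54 before. Stk31, a kinase-like germline protein, was 14.4, 13.9 and 15.02 FPKM after the switch, 9.97, 21.3 and 13.96 before it and 5.63, 5.37, 4.36, 8.301 and 6.87 in TSa2i/L (1.14 ± 0.20, adjusted p = 0.00556), with no switched library as low as any TSa2i/L library. Slc25a31, the germline ADP/ATP carrier, was 2.97, 5.899 and 4.13 FPKM after and 2.93, 5.42 and 14.3 before, against 0.773, 2.19, 1.23, 1.69 and 1.57 (1.09, adjusted p = 0.0138). Tex15, needed in male meiosis, was 2.77, 5.18 and 6.01 FPKM against 1.83, 1.43, 1.76, 2.53 and 1.87 (0.93, adjusted p = 0.0208). These 3 were called under all 3 scalings, and without TSa2i-14 p54 and TSa2i-C57 p58 the list gave 1 higher of 20. Dazl, a germ cell RNA-binding protein, took the other course. It was 9.17, 13.4 and 13.7 FPKM in 2i/L, 2.403, 2.31 and 2.09 after the switch and 2.4998, 3.38, 2.396, 4.95 and 1.69 in TSa2i/L, so the difference went from 1.75 (adjusted p = 0.00261) to -0.23 (interval -0.76 to 0.29). Sohlh2, a transcription factor of early germ cells, likewise went from 10.6, 17.2 and 18.6 FPKM to 3.51, 6.84 and 4.98 against 1.902, 3.64, 7.296, 5.72 and 6.35. Stra8, the retinoic acid target of meiotic entry, was 11.3, 15.2 and 3.48 FPKM before and 0.353, 2.64 and 4.09 after the switch against 0.0949 to 1.796, and was undecided.

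**Figure D5:**
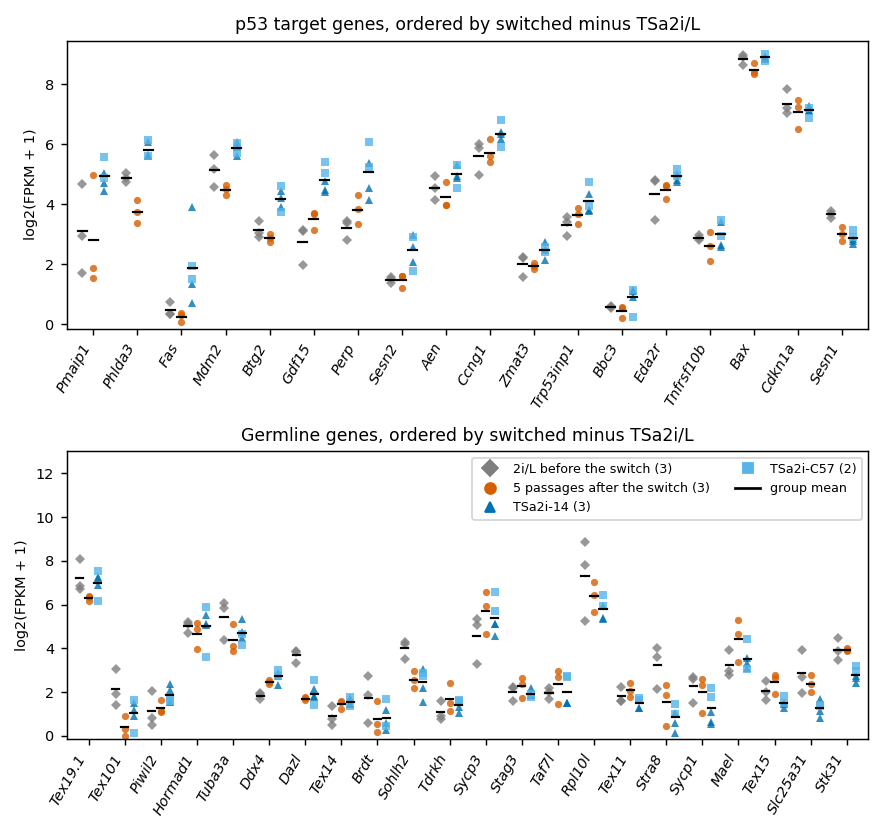
log2(FPKM + 1) (vertical axes) of the 18 p53 target genes and the 22 germline genes tested, ordered by the difference between switched and TSa2i/L cells; points are libraries and bars are group means. Of the p53 targets 8 were called lower, and of the germline genes Tex15, Slc25a31 and Stk31, at the right, were called higher.

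Promoters could be matched for 7822 of the 10285 genes tested after the switch. CACGTG, which reads the same on both strands, stood within 250 bases before to 50 after the start in 11.1% of these and in 7.24% of all promoters of the table. It stood in 3 of 13 promoters of genes that were higher before the switch and still differed (23.1%), and in 2 of 37 of those that had reached the level (5.41%). For all genes called higher after the switch it stood in 17 of 193 promoters (8.81%), below the share of all genes tested. In the germline list it stood in 10 of 19 promoters, with all courses counted together. Of the list members shown above, Slc25a31 and Stk31 held it and Dazl and Sohlh2 did not. This split does not extend to the whole list, since Ddx4, Mael and Hormad1, among others, also held it and were not called higher. GCGGGA, searched on both strands and able to share at most 1 base with CACGTG, was in 36.4% of the promoters of tested genes, in 4 of 13 and in 14 of 37. The median number of CG in the 300 bases was 21 for all genes tested, 19 for the genes that came down to the TSa2i/L level, 15 for those that stayed above it and 4 for the 15 matched genes that fell below it, such as Pramel6 and Pramel7. These are descriptions of the letters in the windows and no test was made.

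Imprinted genes were read against the same shares of 2.43% higher and 12.2% lower. Of 16 paternally expressed genes tested, Nnat was higher and Sgce lower. Sgce, a sarcoglycan, was 8.03, 4.76 and 10.8 FPKM after the switch, 9.75, 4.25 and 6.28 before and 12.1, 27.1, 17.5, 20.8 and 22.97 in TSa2i/L (-1.27, adjusted p = 0.0154). Sgce was not called under all 3 scalings, and without TSa2i-14 p54 and TSa2i-C57 p58 the list gave 1 higher and 0 lower of 14. None of 9 maternally expressed genes was called after the switch by limma (3 at an unadjusted p under 0.05), and 3 were lower before it, the Phlda2, Slc22a18 and Grb10 described above. Meg3, the noncoding RNA of the IG-DMR region, was 22.7, 0.02401 and 0.0427 FPKM after the switch, 1.91, 0.164 and 0.132 before it and 0.147 to 1.73 in TSa2i/L. Only the wild-type line was high, and the difference of the groups was 0.63 ± 0.83 (adjusted p = 0.641). H19 was 0.0686 to 0.125 FPKM in the switched libraries, the lowest in 2i-O48-TKO, the line without H19. It was 0 in the 2i/L library of each switched line, with or without the deletion, and 0 to 2.88 in TSa2i/L. Igf2 was 0.0314 to 0.0568 FPKM in the switched libraries and 0.0411 to 1.43 in TSa2i/L. Both were highest in TSa2i-14 p54, followed by TSa2i-C57 p58, the libraries with fibroblast RNA, and too low in the others to be tested.

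The genes that write, maintain and erase DNA methylation did not give a call. None of 14 tested was called by limma after the switch or before it, and 2 and 3 of them had an unadjusted p under 0.05. Dnmt1 was 9.31, 11.7 and 8.29 FPKM against 7.11 to 12.1 (0.05, interval -0.40 to 0.50), Dnmt3a 0.958 to 1.11 against 0.511 to 1.203 (0.07, -0.30 to 0.44) and Dnmt3b 6.299 to 10.4 against 3.92 to 9.97 (0.23, -0.37 to 0.83). Dnmt3l, the cofactor of the de novo enzymes, spread widely in both groups (21.4 to 46.3 and 17.05 to 61.3 FPKM). Uhrf1, which brings DNMT1 to replicated DNA, was 19.5, 21.4 and 23.1 FPKM against 25.7, 46.5, 29.7, 27.5 and 24.9 (-0.48, adjusted p = 0.139). The 95% intervals, not adjusted over genes, were -1.04 to 0.61 for Dnmt3l and -0.94 to -0.02 for Uhrf1. The groups did not overlap for Uhrf1, as in 21.8% of all genes tested. With 3 and 5 libraries, a true difference of any size inside an interval remained possible. Zfp57, which protects imprints, was 46.03 to 69.8 FPKM against 55.3 to 98.7 (adjusted p = 0.325) after a lower level before the switch (-0.82, adjusted p = 0.0494). Of 16 genes of imprint protection and H3K9 methylation, Cbx1, a heterochromatin protein, was higher (89.999 to 107 against 46.3 to 71.7 FPKM, adjusted p = 0.0378), and none of the 16 was without TSa2i-14 p54 and TSa2i-C57 p58.

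Among 16 naive pluripotency factors, Tbx3 was lower at 1.92, 2.03 and 2.36 FPKM against 3.35, 4.92, 6.68, 3.86 and 5.705 (-0.90, adjusted p = 0.0192). It was not called under all 3 scalings, and none of the 16 was called without TSa2i-14 p54 and TSa2i-C57 p58. Of 9 general and formative genes Pou5f1 was lower, at 68.9, 59.6 and 84.8 FPKM against 163, 134, 143, 77.1 and 147 (-0.86, adjusted p = 0.0305). Pou5f1 overlapped TSa2i-C57 p9 and was not called after median centring or in 15 of its 21 alternatives. Nanog was 180.0, 110.2 and 195 FPKM against 258, 188, 226, 172 and 343 (adjusted p = 0.142). Among 16 targets and feedback genes of the MEK-ERK pathway, whose inhibitor the switch removes, Etv4 and Etv1 were higher than in TSa2i/L. Etv4, an ETS factor, was 0.503, 0.327 and 2.94 FPKM in 2i/L and 3.17, 2.54 and 4.6000 after the switch, against 1.88, 1.46, 2.13, 1.16 and 1.51 (0.74, adjusted p = 0.03297). Etv1 was 2.02, 1.799 and 1.81 FPKM against 0.801, 0.381, 0.975, 0.2997 and 0.986 (0.79, adjusted p = 0.0211). The list gave 1 higher of 15 without TSa2i-14 p54 and TSa2i-C57 p58. Dusp6, the ERK phosphatase, rose within lines from 1.53, 1.14 and 3.26 to 18.6, 4.74 and 9.76 FPKM (adjusted p = 0.0331), against 2.704 to 9.19 in TSa2i/L, with switched 2i-14 above that range. Etv5 was 29.8, 14.8 and 14.6 FPKM against 20.2 to 26.1 and not called (adjusted p = 0.399). Lyn, a Src family kinase, was 0.307 to 0.888 FPKM against 1.24 to 2.91 (adjusted p = 0.0385). The call of Lyn did not hold under all 3 scalings, and no Src family gene was called without TSa2i-14 p54 and TSa2i-C57 p58. Of 11 genes of the LIF-STAT3 pathway the kinase gene Pim3 was lower (10.8 to 14.2 against 16.5 to 22.9 FPKM, adjusted p = 0.0211), a call lost under another scaling and without TSa2i-14 p54 and TSa2i-C57 p58. Of 4 Wnt target genes none was called by limma, at an adjusted or an unadjusted p under 0.05.

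Stress and metabolic genes were read in the same way. Of 16 genes of the amino acid stress response and serine synthesis, 9 were lower before the switch and 3 after it (Trib3, Asns and Atf5), with list medians of -1.004 and -0.32, and none was called under all 3 scalings. Psph, the last enzyme of serine synthesis, reached the TSa2i/L level by the rule, from 88.4, 97.2 and 74.9 FPKM to 242, 202 and 231 against 167, 186, 179.7, 179.7 and 158. Each switched library was above each TSa2i/L library for Psph. Cth, which makes cysteine, and Slc3a2, an amino acid transporter subunit, also reached the TSa2i/L level. Trib3, a pseudokinase induced by ATF4, was still lower at 22.1, 25.8 and 12.04 FPKM against 42.8, 37.8, 50.3, 23.8 and 75.6 (-1.14, adjusted p = 0.0416). Of 20 glycolysis genes, 5 were lower after the switch (Hk1, Gpi1, Pfkm, Aldoa and Gapdh) and 1 before it, with 3 called under all 3 scalings. Aldoa was 1576, 2245 and 1053 FPKM in 2i/L, 821, 629.7 and 679 after the switch and 2026, 1979, 1417, 1009 and 1171 in TSa2i/L (-1.05, adjusted p = 0.0118). Of 18 glutathione and NRF2 genes, 6 were lower and none higher, with 2 called under all 3 scalings. Gsto1, a glutathione transferase, was 177, 206 and 245 FPKM against 499.9, 567, 809.8, 586 and 825 (-1.63 ± 0.19, adjusted p = 8.34e-04), and Srxn1, a sulfiredoxin induced by NRF2, 11.9, 2.15 and 3.89 against 17.1, 24.6, 28.2, 8.76 and 25.02 (-1.80, adjusted p = 0.02297). None of 26 cholesterol and fatty acid synthesis genes was called by limma (5 at an unadjusted p under 0.05). Without TSa2i-14 p54 and TSa2i-C57 p58 the glycolysis list gave 2 lower of 19, the glutathione list 1 of 18 and the amino acid list 0 of 16.

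Adhesion and early lineage genes were read against the same 12.2% lower. Of 17 adhesion genes and targets of YAP or SRF, 3 were lower (Ctgf, Cyr61 and Tagln2), all under each of the 3 scalings, and without TSa2i-14 p54 and TSa2i-C57 p58 the list gave 3 lower of 14. Ctgf, a matrix protein induced by YAP, was 4.39, 5.96 and 9.76 FPKM against 22.4, 18.9, 26.01, 12.2 and 21.7 (-1.48, adjusted p = 0.00677), and Tagln2, an actin-binding protein, 141, 134 and 148 against 281, 363, 281, 315 and 269 (-1.09, adjusted p = 0.00101). Of 11 primitive endoderm and trophoblast genes, Krt7, Krt18 and Srgn were lower, of which Krt7 and Krt18 were called under all 3 scalings. Without TSa2i-14 p54 and TSa2i-C57 p58 the list gave 2 lower of 10. Krt18, a keratin, was 10.9, 5.32 and 3.75 FPKM against 12.8, 19.05, 18.8, 15.2 and 18.7 (-1.32, adjusted p = 0.0111), below the lowest TSa2i/L library in each line. Of 7 Pramel and early-embryo genes, Pramef8 was lower beside Pramel6 and Pramel7, and Dppa4, a chromatin protein of pluripotent cells, was higher (94.8 to 120.4 against 44.5 to 78.9 FPKM, adjusted p = 0.0435). For this list the fit without TSa2i-14 p54 and TSa2i-C57 p58 gave 0 higher and 2 lower.

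Interferon-stimulated genes differed among the TSa2i/L libraries themselves. None of 20 tested was called after the switch by limma (1 at an unadjusted p under 0.05), 5 of 19 were lower before it (6.59% of all genes), and 10 of 15 rose within lines (2.22% of all genes). The summed FPKM of the 26 listed genes was 4097, 1915.9 and 3723 in the switched libraries and 4600.4, 2109, 4414, 2549 and 3092 in TSa2i/L, so both groups held high and low libraries. Usp18, an interferon-induced protease, rose from 0.0316, 0.0322 and 0.122 FPKM to 75.4, 8.49 and 41.2 (4.88, adjusted p = 0.0103), while TSa2i/L ranged from 0.566 to 50.4. Its difference from TSa2i/L was 1.60 with an interval of -0.86 to 4.06, too wide to place it. Bst2, a membrane protein that tethers viruses, went from 36.1, 59.9 and 53.4 to 429, 136 and 447 FPKM against 523, 149, 605, 187 and 301. The immunoproteasome subunit Psmb10 was higher after the switch at 27.5, 41.3 and 41.1 FPKM against 18.3, 19.5, 21.4, 20.4 and 21.97 (0.80, adjusted p = 0.0152), but no gene of its list of 7 was called higher without TSa2i-14 p54 and TSa2i-C57 p58.

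Differences were spread over the chromosomes. The median difference from the TSa2i/L mean, taken over the genes of a chromosome, ran from -0.27 on chromosome 7 to -0.01 on chromosome 13 in switched 2i-14, from -0.25 on chromosome 7 to -0.06 on chromosome X in 2i-O48-TKO and from -0.31 on chromosome 19 to -0.11 on chromosome 13 in 2i-O48. The TSa2i/L libraries ranged from -0.16 to 0.11.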

How the data were processed

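RNA of haploid cells was amplified as full-length cDNA and sequenced. The authors mapped the reads with TopHat2 2.0.11 to mm9 and computed FPKM with Cufflinks 2.2.1, per the submitters' processing notes; the gene annotation and the strand setting are not given in the sources used here. The deposited FPKM of 13 libraries were used, with the rows of a repeated symbol summed. Genes with at least 1 FPKM in 3 or more of the libraries compared were tested on log2(FPKM + 1) with limma 3.58.1 and an intensity trend in R 4.3.3, at an adjusted p of 0.05. A gene under 1 FPKM in all libraries of a group, such as Usp26, Halr1 or Ptprtos, was tested only through the other group. Its direction was then set in part by the filter. The change within lines was fitted with the cell line as a block, since the same line was sampled before and after. Alternatives changed the pseudocount (0.1), the filter, the scaling, the trend, the feeder covariate, the control libraries, the 2i-14 passage and the class limit, and left out each library.

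Named genes were the 12 largest called differences each way with a log2 of at least 1 and no overlap, 8 reached genes each way, 4 each way that went past the level or were called only after the switch, and 12 genes always named. MicroRNA and snoRNA loci, Gm, Rik and clone names and fibroblast markers were left out. Members of called lists may also be named. The members, lists and rules were chosen with earlier results of these data known. Depth was estimated from FPKM steps, since no counts were used. Fits were tested on simulated data. Gene positions are from GENCODE on NCBIM37 (mm9) and promoters from RefSeq. Some items are not reported here.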

Additional observations from a re-analysis of the deposited data

Results flagged for a closer look

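In 7 of 62 genes examined, 1 of the 5 TSa2i/L libraries lay far from the other 4, with a gap to its neighbour above 0.71 of the whole range, where about 1 gene in 20 is expected by chance. This share was 1 for Halr1 in TSa2i-14 p54, the only TSa2i/L library in which it was above 0 FPKM. It was 0.777 for Mia in TSa2i-14 p22, 0.725 for Vsig2 and 0.717 for Uhrf1 in TSa2i-14 p47. TSa2i-C57 p9 stood apart for Cyr61 (0.720), Dnmt3a (0.715) and Pou5f1 (0.738).

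For 7 genes the change from 2i/L to 5 passages after the switch had one sign in wild-type 2i-14, read from p50, and the other in both DMR-deleted lines. The difference was not tested, since 1 line stands on one side, and line and genotype cannot be told apart. On log2, Meg3 changed by 3.03 in 2i-14, -0.19 in 2i-O48-TKO and -0.12 in 2i-O48, and the change in 2i-14 exceeded the mean of the others by 3.18. Pou5f1 changed by 0.19, -1.003 and -0.98 (a difference of 1.18) and Etv5 by 0.43, -0.67 and -0.97 (1.25). The difference was 1.18 for Rab3il1, 1.11 for Xlr, 0.969 for Dnmt3l and -1 for Ptprtos. Which passage of 2i-14 was switched is not given in the labels. Read from p18 or p39, Pou5f1 (139.98 and 99.2 against 68.9 FPKM after the switch), Etv5 (38.5 and 41.2 against 29.8) and Rab3il1 (0.949 and 0.853 against 0.563) were lower after the switch in 2i-14 too, and so was Dnmt3l read from p18 (64.1 against 30.95). Meg3, Xlr and Ptprtos kept their sign in 2i-14 from p18 and from p39.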

How the results depend on the processing

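The number of genes called between switched and TSa2i/L cells was 1504. It was 628 with no filter on low FPKM, 923 after quantile normalization, 496 with the fibroblast marker level as a covariate, 455 without TSa2i-14 p54 and TSa2i-C57 p58 (439 of them also called, in the same direction, with all libraries), 110 against TSa2i-C57 alone and 538 at a log2 of at least 1. With wild-type 2i-14 as the only switched library it was 124, and with the DMR-deleted lines 937. Leaving out each library gave 551 to 2188. Before the switch 1020 genes were called, against 552 with no filter, 606 at a mean of at least 5 FPKM, 530 with the covariate, 508 without the 2 libraries, 642 against TSa2i-14 alone, 103 against TSa2i-C57 alone, 521 at a log2 of at least 1 and 648 with 2i-14 p18, and 482 to 951 when libraries were left out, the lowest without 2i-O48-TKO.

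The classes moved with these counts. No filter gave 53 genes that still differed and 6 past the level. A mean of at least 5 FPKM gave 94 reached, 105 still different, 12 past and 68 undecided. Genes that still differed numbered 97 after median centring, 94 after quantile normalization, 85 with the covariate (8 past), 79 without the 2 libraries (11 past) and 98 with 2i-14 p18. Against TSa2i-C57 alone there were 18 reached, 17 still different, 1 past and 50 undecided. With calls against TSa2i-14 and levels read against TSa2i-C57 there were 88, 30, 5 and 247. A limit of 0.58 left 26 reached and 251 undecided, and a pseudocount of 0.1 left 254 undecided. Leaving out libraries gave 118 to 172 reached, 90 to 197 still different, 10 to 23 past and 114 to 199 undecided.

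Within lines, 672 genes changed with the line as a block and 778 without the replicate block, 567 of them shared. The deviations of paired libraries correlated at 0.17 for 2i-14, 0.36 for 2i-O48-TKO and -0.14 for 2i-O48. With 2i-14 p18 or p39 in place of p50 the count was 1483 or 1522, and with no filter limma called 0 (3206 at an unadjusted p under 0.05, smallest adjusted p 0.143). No paired analysis was possible because switched and TSa2i/L cells share no line. With a pseudocount of 0.1 the median distances were 0.935 (switched to TSa2i/L), 0.912 (2i/L to TSa2i/L), 0.671 (within TSa2i/L) and 0.936 (switched to own 2i/L). The cause of these shifts was not tested. For single genes, 140 results under an alternative were no longer past the threshold and 1 newly was, and no called direction reversed.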
